A study of Mus musculus with 23 samples.

Results

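The genes described here are 9 transcripts that rise in many tissues when glucocorticoid hormone binds its receptor: Fkbp5, Sgk1, Tsc22d3, Nfkbia, Cdkn1a, Pdk4, Plin4, Hif3a and Sult1a1. The rule names them by symbol and uses no measured value, although they were picked with earlier results of these data known, and 9 of 9 were found among the 13766 genes of the table. Their levels were measured by RNA sequencing in the hippocampus of 23 mice of the FCG model on a C57Bl/6J background, at about 12 months of age. In FCG mice Sry, which directs the gonad to form a testis, lies on an autosome and is missing from the Y chromosome, so either gonad can occur with XX or XY. The 4 groups were XXF (XX with ovaries, n = 5), XXM (XX with testes, n = 6), XYF (XY with ovaries, n = 6) and XYM (XY with testes, n = 6), 1 library per animal. The mice of all groups came from a colony revived from frozen embryos, ate the same chow and were killed by cervical dislocation and decapitation. They were caged by the look of the genitalia, so the kind of cage and the gonad cannot be told apart. The hour of collection, which bears on hormone level, was not in the labels.

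As background, corticosterone, the main glucocorticoid of the mouse, crosses into the brain and binds the mineralocorticoid receptor (Nr3c2) at low concentrations and the glucocorticoid receptor (Nr3c1) when stress or the daily peak raises it. The hippocampus is rich in both. The bound receptor enters the nucleus and binds glucocorticoid response elements in DNA, and the induced genes include regulators that damp the response. The design asks whether the level of such genes follows the sex chromosomes or the gonad, and whether they move together from animal to animal.

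Estimated counts per library summed to between 10257751 and 36078221 over the listed genes. Levels are given as CPM, counts scaled to a common library total by the trimmed mean of M-values. Differences between groups are on the log2 scale, tested with edgeR (quasi-likelihood), and p-values were adjusted (Benjamini-Hochberg) over all 13766 genes, with a threshold of 0.05. In the 11 XX libraries Xist, a transcript of the silenced X, lay between 936 and 1468 CPM, and in 11 of the 12 XY libraries at or below 2.86 CPM. XYF replicate 4 had 94.1 CPM of Xist together with Y-linked genes within the range of the other XY libraries (Ddx3y at 63.6 CPM, range 49.2 to 73.2), so the counts for the comparisons, the co-varying pairs and the other targets are also given without it. Of 9 hippocampal marker genes, Prox1 and Neurod6 among them, 9 were present, with summed levels of 772 to 1009 CPM. Because the tissue was bulk, fewer cells of a type and less RNA per cell cannot be told apart.

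Sgk1 and Tsc22d3, a kinase that controls ion transport and cell survival and a leucine zipper protein that binds and restrains inflammatory transcription factors, had the highest levels of the 9 genes per length of transcript. Per kilobase of annotated exon Tsc22d3 averaged 23.3 CPM and Sgk1 20.1 CPM over the 23 libraries. Fkbp5, a chaperone that lowers the affinity of the receptor for hormone, followed at 11.9 CPM per kilobase. Nfkbia, the inhibitor that holds NF-kappaB in the cytoplasm, stood at 11.4 CPM per kilobase, a gap to Fkbp5 smaller than the spread of Nfkbia, whose highest library was 2.09 times its lowest. Tsc22d3 and Sgk1, and Plin4 and Hif3a, also lay closer to each other than their spread between libraries. Sult1a1, a sulfotransferase, averaged 5.56 CPM per kilobase, and Pdk4, a kinase that turns off pyruvate dehydrogenase, 4.58. Cdkn1a, the cell cycle inhibitor p21, came next at 2.55 CPM per kilobase. The lowest levels were those of Plin4, a protein of lipid droplets, at 1.26 CPM per kilobase and Hif3a, a member of the hypoxia-inducible factor family that can restrain the others, at 1.04. No member fell below a count of 39 in any library.

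The DNA around the start sites is shown, from 250 bases before to 50 bases after, for 3 of the 5 co-varying members described below, those whose windows hold a match to a motif searched. No link between a match and the levels was tested. The sequences are those of RefSeq on GRCm38.p6, written from 5′ to 3′ on the strand of the gene, and capitals mark the motifs found. RefSeq lists 17 start sites for the 9 members. One of the 6 start sites of Sgk1 (chromosome 10, chr10:21993640-21993939, plus strand) has the full palindromic response element, the arms AGAACA and TGTTCT with 3 bases of any kind between them, at positions -189 to -175 from the start. The same window has a separate single arm, TGTTCT, at -242 to -237. Of the 3 start sites of Tsc22d3, 1 (chromosome X, chrX:140600473-140600772, minus strand) has a single arm at -185 to -180, and the other windows hold no match. Nfkbia (chromosome 12, chr12:55492598-55492897, minus strand) has a kappa B site, GGGAN followed by TTTCC when read on the other strand, at -29 to -20.
Sgk1: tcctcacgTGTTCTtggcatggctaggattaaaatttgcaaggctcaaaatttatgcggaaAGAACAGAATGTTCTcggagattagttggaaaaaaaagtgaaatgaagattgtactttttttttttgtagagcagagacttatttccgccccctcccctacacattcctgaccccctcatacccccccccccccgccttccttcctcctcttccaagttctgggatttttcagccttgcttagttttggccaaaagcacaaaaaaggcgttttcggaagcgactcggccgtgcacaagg
Tsc22d3: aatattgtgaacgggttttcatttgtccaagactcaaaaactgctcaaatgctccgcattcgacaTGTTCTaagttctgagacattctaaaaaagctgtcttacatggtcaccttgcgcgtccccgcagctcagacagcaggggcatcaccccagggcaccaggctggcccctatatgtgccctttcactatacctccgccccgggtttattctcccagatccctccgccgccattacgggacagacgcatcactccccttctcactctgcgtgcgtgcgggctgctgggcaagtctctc
Nfkbia: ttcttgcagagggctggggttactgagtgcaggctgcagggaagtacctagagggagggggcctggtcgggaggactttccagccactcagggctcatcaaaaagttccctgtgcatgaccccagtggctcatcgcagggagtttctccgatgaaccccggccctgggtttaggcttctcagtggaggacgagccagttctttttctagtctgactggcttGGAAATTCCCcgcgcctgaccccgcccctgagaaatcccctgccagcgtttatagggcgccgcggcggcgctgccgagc

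Both strands were searched for each motif in all 32851 windows of 300 bases in the RefSeq promoter table. The full element stood in 3 of them (0.00913%), of the genes Sgk1, Acnat2 and Gm35041. A looser form, the arms GNACA and TGTNC with 3 bases of any kind between them, which every full element also holds, stood in 0.475%. The single arm stood in 19% and the kappa B site in 0.411%. Single arms were thus common, and each full element contains them. Of the 9 members, only Sgk1 had a full or loose element in any of these windows. In 2 of the other windows of Sgk1, and in that of Sult1a1, single arms stood alone. A match describes these letters only, and elements farther from the start were not searched.

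Fkbp5 differed least between libraries in the ratio of its highest to its lowest level (1.43, between 63.2 and 90.6 CPM). In XXF it stood at 74.6, 75.7, 78.6, 79.3 and 83.5 CPM. It ran from 63.2 through a median of 79.2 to 87.5 CPM in XXM, from 65.8 through 79.7 to 90.6 CPM in XYF, and from 68.0 through 79.6 to 83.6 CPM in XYM. The groups overlapped, with XXF spanning the narrowest range.

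Sgk1 and Tsc22d3 were higher in some XYF animals than in any other. Sgk1 stood at 63.1, 67.8, 73.4, 80.1 and 101 CPM in XXF, and ran from 63.0 through a median of 71.6 to 81.0 CPM in XXM. It ran from 53.9 through 106 to 150.5 CPM in XYF and from 53.9 through 62.9 to 116 CPM in XYM. XYF replicates 2, 3 and 4, at 150.5, 123 and 133 CPM, lay above every library of the other groups, while XYF replicate 6 lay at 53.9 CPM. Tsc22d3 stood at 56.1, 60.2, 60.2, 78.6 and 88.3 CPM in XXF, and ran from 52.5 through 55.7 to 67.7 CPM in XXM. It ran from 48.4 through 77.5 to 97.5 CPM in XYF and from 45.8 through 55.0 to 80.6 CPM in XYM. The same XYF libraries were the highest of the series, at 97.5, 91.7 and 94.7 CPM, and the groups overlapped.

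Plin4 and Hif3a had the widest ranges. Plin4 stood at 5.45, 5.71, 6.00, 7.35 and 9.73 CPM in XXF. It ran from 4.00 through a median of 5.78 to 12.3 CPM in XXM, from 4.53 through 10.9 to 14.5 CPM in XYF, and from 3.57 through 4.52 to 11.6 CPM in XYM. Single animals were high in XXM (replicate 5) and XYM (replicate 1), and 4 of the XYF libraries stood at or above 9.58 CPM. Hif3a stood at 3.14, 4.22, 5.02, 8.34 and 9.82 CPM in XXF. It ran from 3.29 through 4.34 to 8.67 CPM in XXM, from 4.19 through 9.94 to 13.3 CPM in XYF, and from 4.83 through 6.20 to 11.7 CPM in XYM. The 4 groups overlapped in Hif3a as in Plin4.

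Nfkbia stood at 16.1, 17.5, 18.3, 20.3 and 21.9 CPM in XXF. It ran from 14.1 through a median of 17.1 to 18.5 CPM in XXM, from 16.8 through 20.7 to 26.5 CPM in XYF, and from 12.7 through 14.2 to 19.9 CPM in XYM. The medians were lower in the groups with testes, and the groups overlapped. Cdkn1a averaged 8.03 ± 1.31 CPM in XXF (SD, n = 5), 6.46 ± 1.22 in XXM, 7.85 ± 1.77 in XYF and 5.58 ± 1.25 in XYM (SD, n = 6 each). Sult1a1, whose family holds similar genes that the counting could split, ranged from 5.70 to 12.3 CPM and Pdk4 from 12.6 to 20.8 CPM over all libraries.

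**Figure D1:**
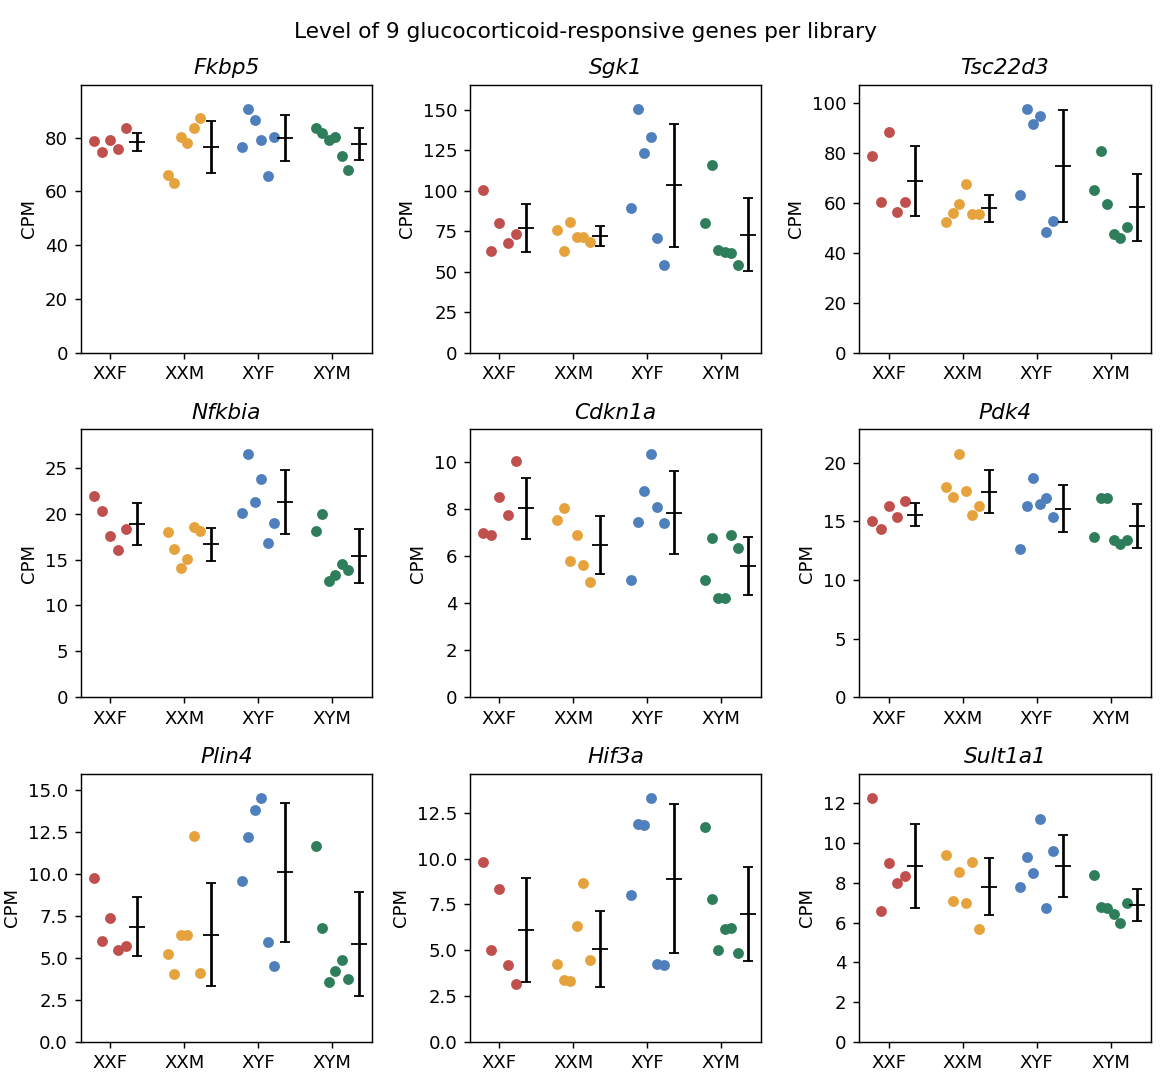
Level in CPM (linear axis from 0) of each of the 9 genes in every library, 1 point per animal, by group, with the group mean and SD beside the points. Fkbp5 lies between 63.2 and 90.6 CPM in all groups, while the XYF points of Sgk1 spread from 53.9 to 150.5 CPM.

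In the sex chromosome effect (XY less XX, as the mean over both gonads) 0 of the 9 genes passed, where 0.283% of all genes did. The unadjusted p was under 0.05 for 1 of the 9 by edgeR and 1 by DESeq2, higher in XY, beside 3.37% of all genes that were higher at that p by edgeR. By edgeR that gene was Hif3a, at 0.49 ± 0.23 on the log2 scale (SE; adjusted p = 0.711). Sgk1 stood at 0.22 ± 0.14 and Plin4 at 0.21 ± 0.23, both within 2 standard errors of 0. The median of the 9 was 0.03, beside 0.00 for all genes. Tsc22d3, the X-linked member (chromosome X, 140539529 to 140600522), stood at 0.06 ± 0.12 (edgeR adjusted p = 0.967), and this error allows a difference in either direction. Without XYF replicate 4 the count of members at an unadjusted p under 0.05 was 0, on either side, beside 3.32% of all genes on the higher side.

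The gonad effect (testes less ovaries, as the mean over XX and XY) was below 0 for 8 of the 9 genes. Of the 9, 0 passed by edgeR, where 0.16% of all genes did. By edgeR 5 of the 9 had an unadjusted p under 0.05, each lower with testes, beside 7.14% of all genes that were lower at that p. The median log2 fold change was -0.31, against 0.00 for all genes. Of the 9, 5 varied together from animal to animal, as described below. Counts of members in this and the other contrasts are therefore not counts of independent genes. Nfkbia was at -0.32 ± 0.08 (a level 0.800 times that with ovaries; edgeR unadjusted p = 0.00083, adjusted p = 0.131). DESeq2 gave Nfkbia an adjusted p of 0.0378, the lone call of a member by any tool, where DESeq2 called 0.713% of all genes. Over all the alternatives run its adjusted p ranged from 0.0378 to 0.303. Cdkn1a was at -0.39 ± 0.12 (edgeR adjusted p = 0.18). Sult1a1 was at -0.27 ± 0.10, Tsc22d3 at -0.31 ± 0.12 and Sgk1 at -0.30 ± 0.14, with edgeR adjusted p from 0.257 to 0.345. Plin4 had the lowest value, -0.45 ± 0.23, and Hif3a stood at -0.32 ± 0.23. Fkbp5 was at -0.04 ± 0.06 and Pdk4 at 0.02 ± 0.07, the members nearest to 0. Without XYF replicate 4, 4 of the 9 were lower at an unadjusted p under 0.05, beside 6.53% of all genes, and Nfkbia was at -0.30 (edgeR adjusted p = 0.211).

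Markers of other cells and states were set beside this contrast. Of 9 choroid plexus genes, which mark tissue outside the hippocampus, 9 had a gonad value above 0 and 0 had an unadjusted p under 0.05. Their median summed levels were 110 CPM in XXF, 2015 in XXM, 99.8 in XYF and 117 in XYM, and the groups overlapped. With that list's score added to the model 6 of the 9 members were lower at an unadjusted p under 0.05, beside 6.12% of all genes, and Nfkbia was at -0.33 (edgeR adjusted p = 0.144). Of 3 blood genes, 3 were lower with testes at an unadjusted p under 0.05, the direction of most members, beside 7.14% of all genes. None of the 3 passed (smallest edgeR adjusted p = 0.0752). In XYM minus XYF 3 of the 3 blood genes passed, where 0.225% of all genes did, with log2 fold changes from -1.40 to -1.07 (smallest edgeR adjusted p = 0.0224). In XYF minus XXM 2 of the 3 passed, higher in XYF, where 0.501% of all genes did. Of 6 microglial genes, 3 were lower with testes at an unadjusted p under 0.05, beside 7.14% of all genes, and 0 passed (smallest edgeR adjusted p = 0.161). Of 9 clock genes, 3 were lower and 1 higher with testes at that p, beside 7.14% and 6.49% of all genes. None of the clock genes passed, Dbp being lowest at -0.40 ± 0.10 (edgeR adjusted p = 0.135). Of 8 immediate early genes, 7 lay below 0, 1 of them at an unadjusted p under 0.05, and 0 passed (smallest edgeR adjusted p = 0.333). The part of blood, microglia, the clock or the immediate early genes in the members' values was not tested. The labels also give each animal a number. It ran from 296 to 313 in XXF, 301 to 323 in XXM, 295 to 321 in XYF and 292 to 326 in XYM. The number was thus not evenly spread over the groups, and its part in the gonad values was not tested. With that number added to the model, a choice made after seeing the data, 2 of the 9 members were lower at an unadjusted p under 0.05, beside 7.2% of all genes, and Nfkbia was at -0.24 (edgeR adjusted p = 0.303).

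**Figure D2:**
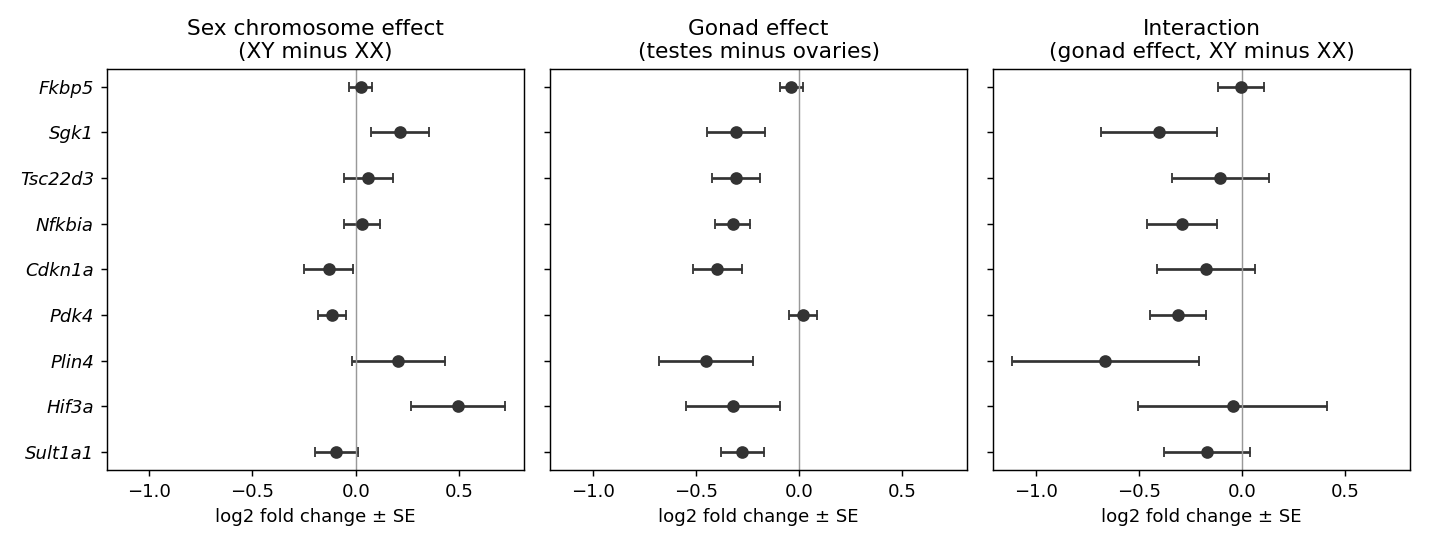
Log2 fold change with its standard error (horizontal axis, the same scale in all panels) for each of the 9 genes in the sex chromosome effect, the gonad effect and their interaction. In the gonad panel 8 of the 9 points lie below 0, and 0 of the values shown passed the adjusted threshold in edgeR.

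The difference between testes and ovaries was set out within each sex chromosome complement. In XY animals, XYM minus XYF was below 0 for all 9 genes, 6 of them at an unadjusted p under 0.05 (4.66% of all genes were lower at that p) and 0 after adjustment (0.225% of all genes). Nfkbia was at -0.47 ± 0.12, Cdkn1a at -0.48 ± 0.17, Sgk1 at -0.51 ± 0.19 and Plin4 at -0.78 ± 0.31, with edgeR adjusted p from 0.147 to 0.516. The count at that p was 3 without XYF replicate 4, beside 3.7% of all genes. In XX animals, XXM minus XXF was below 0 for 8 of the 9, with 0 at an unadjusted p under 0.05 by edgeR (7.71% of all genes), 0 after adjustment (0%) and a median of -0.17. The XY and XX contrasts use different animals. The interaction, which tests their difference directly, was below 0 for 9 of 9 genes, with 1 at an unadjusted p under 0.05 (Pdk4, -0.31 ± 0.13) where 3.23% of all genes were, 2.18% on the lower side. It passed for 0 genes of the whole table (0%) by edgeR, DESeq2 and limma, with 444 genes at an unadjusted p under 0.05 by edgeR. The sign of the interaction of Fkbp5 (-0.01) and Hif3a (-0.05) turned under other settings, that of Hif3a also without XYF replicate 4 (0.098), where 1 member again had an unadjusted p under 0.05, beside 2.06% of all genes that were lower. The remaining pairwise comparisons also called 0 members by edgeR. In XYM minus XXM (0.116% of all genes called), 1 member had an unadjusted p under 0.05, Pdk4, at -0.27 ± 0.09 (edgeR unadjusted p = 0.0071, adjusted p = 0.921), beside 2.58% of all genes that were lower at that p. In XYF minus XXF (0.291% called) 0 members had an unadjusted p under 0.05, where 5.17% of all genes did. In XYM minus XXF (0.131% called) 3 had, all lower in XYM (5.38% of all genes), with Cdkn1a lowest at -0.53 ± 0.17. In XYF minus XXM (0.501% called) 5 had, all higher in XYF (5.15% of all genes), among them Hif3a at 0.81 ± 0.31 and Sgk1 at 0.52 ± 0.19. Without XYF replicate 4, 3 were higher in XYF than in XXM at that p (4.26% of all genes) and 0 differed between XYF and XXF.

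Animals of the same group differed widely in some of these genes. The SD of log2 CPM around the group means was 0.61 for Hif3a, 0.59 for Plin4, 0.38 for Sgk1 and 0.32 for Tsc22d3. Among genes within 2-fold of the same mean level, these values were above those of 97.0%, 96.8%, 99.4% and 98.9%, respectively. For Fkbp5 the SD was 0.14, above 74.1% of 4283 genes of like level. The corresponding share was 80.2% for Nfkbia, 78.1% for Cdkn1a, 70.9% for Sult1a1 and 41.5% for Pdk4.

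These differences between animals were shared by 5 of the genes. Each library's log2 CPM was taken as its deviation from the group mean, and all 36 pairs of members were compared over the 23 libraries, with permutation p-values (100000 permutations within groups, 2-sided) adjusted over the 36. All 10 pairs among Sgk1, Tsc22d3, Nfkbia, Plin4 and Hif3a passed, with Pearson's r from 0.61 to 0.88, and the same 10 passed with Spearman's rho. Without the 2 libraries farthest from the median of the first gene, r of Tsc22d3 and Nfkbia was 0.40, so that this relation rests on those libraries, and r of the other 9 pairs was between 0.63 and 0.86. In all, 12 of the 36 pairs passed with r and 13 with rho, each of the 12 positive, and 11 passed with both. Over the 36 pairs the median r was 0.43 and 32 were above 0.

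Plin4 and Hif3a had the highest correlation, r = 0.88 (permutation p = 1e-05, the smallest that 100000 permutations can give, adjusted p = 0.00036) and rho = 0.86 (permutation adjusted p = 0.00072). Without the 2 libraries farthest from the median of Plin4, r was 0.86. Sgk1 and Tsc22d3 followed with r = 0.87 (permutation p = 8e-05, adjusted p = 0.00144) and rho = 0.85 (permutation p = 8e-05, adjusted p = 0.00096), and r was 0.84 without the 2 farthest libraries. Among the 13735 genes with a mean of at least 1 CPM, none had a higher r with Plin4 than Hif3a, or with Hif3a than Plin4. The same held of Sgk1 and Tsc22d3 in both directions. In the ranking of all these genes by r with Sgk1, Plin4 was number 11, Hif3a number 21 and Nfkbia number 25.

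Sgk1 correlated with Plin4 at r = 0.74, rho = 0.82 (permutation p = 0.00054 and 6e-05, adjusted p = 0.00495 and 0.00096). With Hif3a it stood at r = 0.71, rho = 0.69 (permutation p = 0.00091 and 0.00115, adjusted p = 0.00655 and 0.0103). Nfkbia, which NF-kappaB itself also induces, correlated with Sgk1 at r = 0.70, rho = 0.67 (permutation p = 0.00123 and 0.0027, adjusted p = 0.00738 and 0.0142). Without the 2 libraries farthest from the median of Sgk1, r was 0.70 with Plin4, 0.71 with Hif3a and 0.66 with Nfkbia.

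Fkbp5 was only partly in step. Its correlation with Tsc22d3 was r = 0.51 (permutation p = 0.0104, adjusted p = 0.0313) but rho = 0.49 missed the threshold (permutation p = 0.0211, adjusted p = 0.0543), and r was 0.42 without the 2 farthest libraries. With Sgk1 the reverse held, r = 0.47 (permutation p = 0.0278, adjusted p = 0.0771) and rho = 0.55 (permutation p = 0.00913, adjusted p = 0.0299). Cdkn1a passed in 0 of its 8 pairs, with r from -0.31 to 0.39, and Pdk4 in 0 of 8, with r from -0.11 to 0.43. Sult1a1 passed with Plin4 (r = 0.55, permutation p = 0.00685, adjusted p = 0.0247, and rho = 0.53, permutation p = 0.0153, adjusted p = 0.0423), with r = 0.44 without the 2 farthest libraries.

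**Figure D3:**
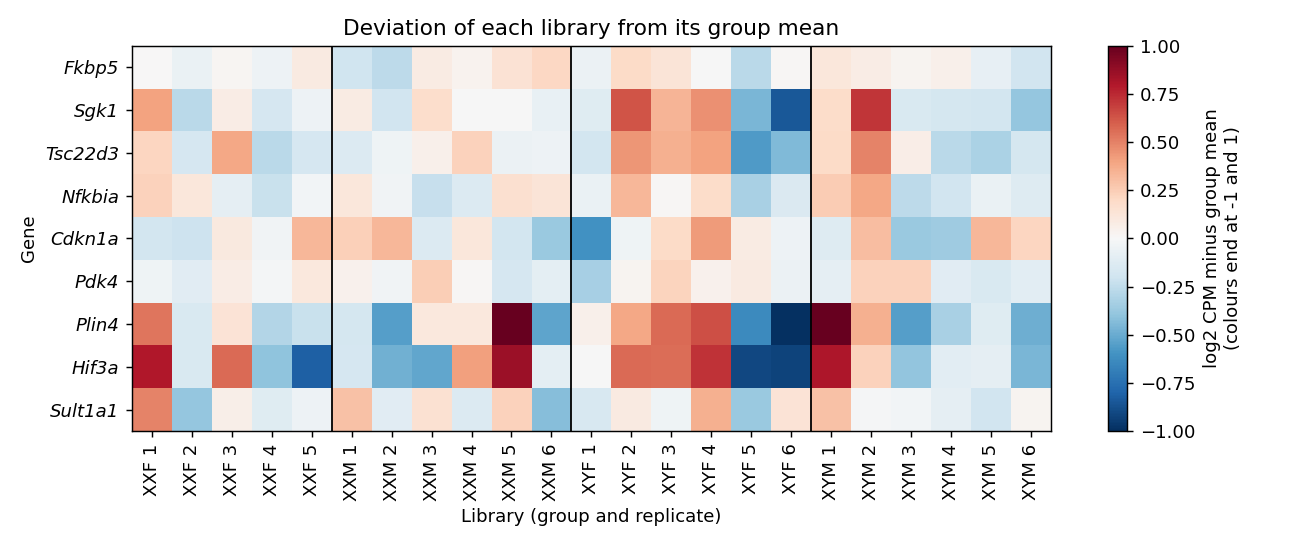
Deviation of each library (columns, by group) from its group mean for each of the 9 genes (rows), in log2 CPM, red above and blue below the mean, with colours ending at -1 and 1. XYF replicates 2 to 4 are red and XYF replicates 5 and 6 blue across Sgk1, Tsc22d3, Plin4 and Hif3a.

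Few libraries had the highest levels of several members at once. Ranked by CPM over the 23 libraries, 4 were among the top 6 for each of Sgk1, Tsc22d3, Plin4 and Hif3a: XYF replicates 2, 3 and 4 and XXF replicate 1. By contrast, 14 libraries were among the top 6 for 0 of these 4 genes. This ranking keeps the differences between group means, which the correlations leave out. As deviation from the group mean (log2 CPM, averaged over the members), XYM replicates 1 and 2 stood at 0.31 each. XYF replicates 2, 3 and 4 stood at 0.29, 0.26 and 0.36, and XXF replicate 1 at 0.27. XYF replicates 5 and 6 stood lowest, at -0.37 each. In XY animals alone 11 of the 36 pairs passed, in XX animals alone 0, with ovaries alone 7 and with testes alone 1. These subsets hold only 11 or 12 animals each, and the difference between XX and XY was not tested. Within single groups Plin4 and Hif3a had r of 0.90 in XXF, 0.78 in XXM, 0.98 in XYF and 0.99 in XYM. For Sgk1 and Tsc22d3 these were 0.72, 0.10, 0.94 and 0.90, so that XXM showed almost no relation. This was not confined to that pair. Apart from Plin4 and Hif3a, pairs of the co-varying members in XXM ran from -0.71 (Tsc22d3 and Nfkbia) to 0.43 (Nfkbia and Hif3a). Sgk1 was also below 0 there with Nfkbia (-0.33) and Hif3a (-0.03). The same pairs ran from 0.29 to 0.92 in XXF, 0.75 to 0.97 in XYF and 0.52 to 0.90 in XYM. The difference between XXM and the other groups was not tested. With XYF replicates 2, 3 and 4 left out together, a choice made after seeing the data, 2 of the 36 pairs passed. Without XYF replicate 4 alone, 12 passed.

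The animal numbers, from 292 to 326, ran partly with this pattern. The labels do not say whether they follow a date, litter or cage. In XYF the high replicates 2, 3 and 4 were animals 297, 305 and 306, and replicates 5 and 6, each 0.37 below the group mean on average over the 9 members (log2 CPM), were animals 320 and 321. Across the 23 libraries, with both measures centred within groups, r with the animal number was between -0.54 and -0.48 for Sgk1, Tsc22d3, Nfkbia, Plin4 and Hif3a (permutation p from 0.024 to 0.0405; adjusted over the 9 members, 0.0728 for each) and rho between -0.56 and -0.46 (permutation p from 0.0151 to 0.0431, adjusted p from 0.0713 to 0.0776). None of the 9 members passed with r or with rho. Without the 2 libraries farthest from the median of the centred number, r of these 5 lay between -0.45 and -0.18. With the animal number removed by regression, a choice made after seeing the data, 10 of the 36 pairs passed. Plin4 and Hif3a then had r = 0.84 and Sgk1 and Tsc22d3 r = 0.82 (permutation adjusted p = 0.00072 and 0.00666). The pairs of Tsc22d3 and Nfkbia (r = 0.49), Nfkbia and Plin4 (r = 0.52) and Plin4 and Sult1a1 (r = 0.47) no longer passed, with permutation adjusted p of 0.072, 0.0679 and 0.0821. What the number stands for, and its part in the pattern, was not tested.

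**Figure D4:**
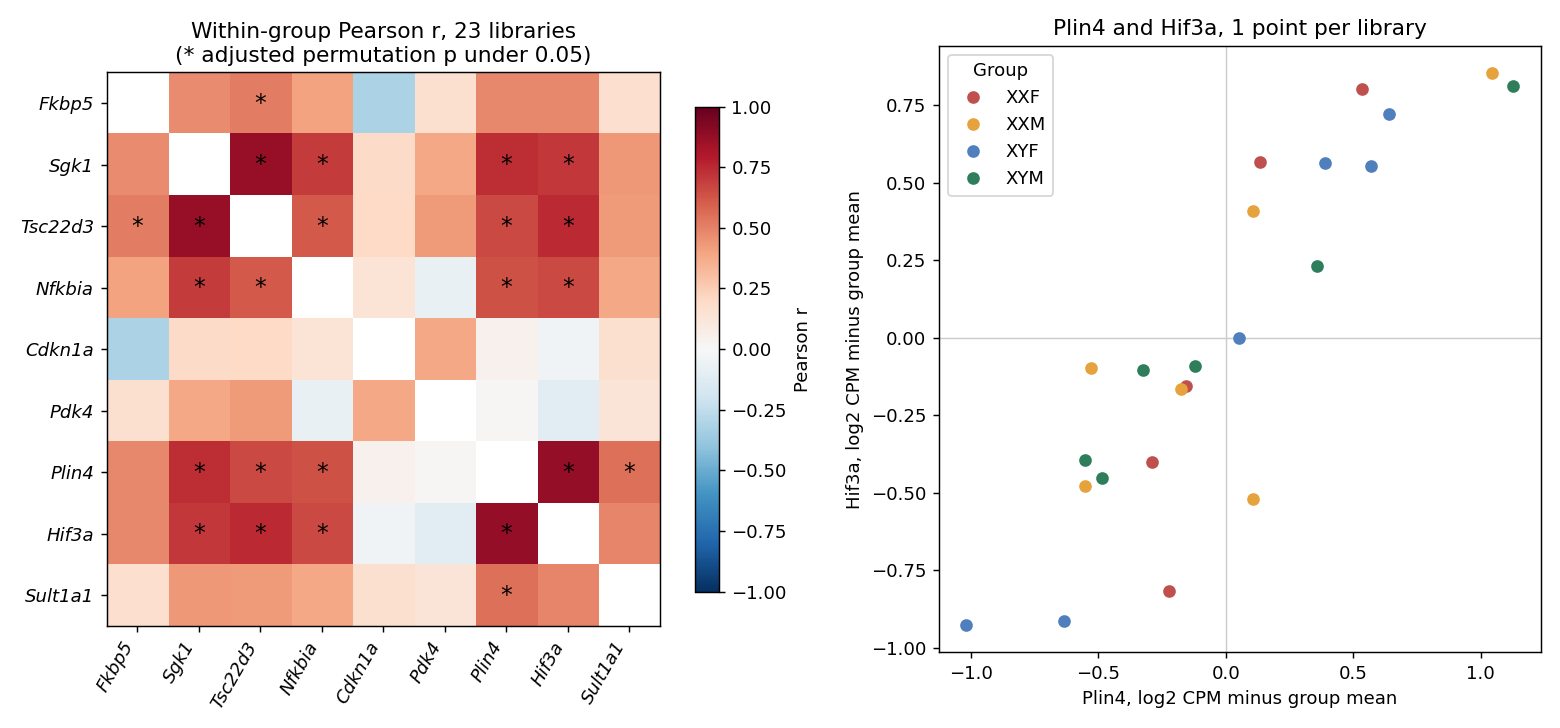
Left, Pearson's r of deviations from the group mean for each pair of the 9 genes over 23 libraries, with a star where the adjusted permutation p was under 0.05. Right, the deviations of Plin4 and Hif3a, 1 point per library coloured by group; points of all 4 groups run along the same diagonal (r = 0.88).

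The rest of the pathway was read next, from lists of genes that were not members. Of 11 genes of the receptor machinery, 0 passed in any of the main contrasts. Nr3c1, the glucocorticoid receptor, stood at 119 ± 4.70 CPM in XXF (SD, n = 5), 125 ± 8.90 in XXM, 109 ± 7.59 in XYF and 116 ± 4.92 in XYM (SD, n = 6 each), and its sex chromosome effect was -0.11 ± 0.04 (edgeR adjusted p = 0.479). Nr3c2, the mineralocorticoid receptor, stood at 146 ± 16.6 CPM in XXF (SD, n = 5), 166 ± 7.38 in XXM, 150.3 ± 14 in XYF and 173 ± 11.6 in XYM (SD, n = 6 each), a gonad effect of 0.19 ± 0.05 (edgeR unadjusted p = 0.000478, adjusted p = 0.104). Its sign was opposite to that of most members. The chaperones Hsp90aa1, Hsp90ab1, Ptges3, Fkbp4, Stip1 and Bag1 had gonad log2 fold changes between -0.10 and 0.03. Hsd11b1, which regenerates active hormone inside cells, was at 0.08 ± 0.08, and its partner H6pd at -0.02 ± 0.08. Abcb1a, the pump that carries steroids out across the blood-brain barrier, was at -0.05 ± 0.06. It was the one gene of this list whose within-group correlation with the mean of the 9 members exceeded 0.5 (r = 0.62).

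Of 24 other known glucocorticoid targets, 23 were in the table and Lcn2 was not analysed here. In the gonad effect 16 of the 23 lay below 0, 10 of them at an unadjusted p under 0.05 beside 7.14% of all genes, with 0 on the higher side and 0 passing after adjustment. Several of the 23 varied with the members across the same animals, as described next, so these are not counts of independent genes. Xdh, a purine oxidase, was at -0.59 ± 0.14 (edgeR adjusted p = 0.0947). It averaged 9.84 ± 1.71 CPM in XXF (SD, n = 5) and 11.5 ± 3.35 in XYF against 6.18 ± 1.36 in XXM and 7.99 ± 2.62 in XYM (SD, n = 6 each). The metallothioneins Mt2 and Mt1, metal-binding proteins with near-identical copies whose reads the counting could split, were at -0.35 ± 0.10 and -0.24 ± 0.08 (edgeR adjusted p = 0.161 and 0.204). In the sex chromosome effect 3 of the 23 had an unadjusted p under 0.05, all higher in XY, beside 3.37% of all genes that were higher at that p. These were Cebpd (0.22), Xdh (0.30) and Zbtb16 (0.14), with edgeR adjusted p from 0.727 to 0.734. In the interaction 0 did, where 3.23% of all genes did, Angptl4 being lowest at -0.54 ± 0.31. Xdh was the 1 gene of the list called in any pairwise comparison. It was higher in XYF than in XXM by 0.89 ± 0.20 (edgeR adjusted p = 0.0306), where 0.501% of all genes were called. Without XYF replicate 4, 0 genes of the list were called in any of these comparisons, and in the gonad effect 9 were lower at an unadjusted p under 0.05, beside 6.53% of all genes.

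Several of these targets varied with the members from animal to animal. Over the 23 libraries, 9 of the 23 had a within-group r above 0.5 with the mean of the 9 members, beside 2.02% of 13727 other genes, and the median of the list was 0.35 beside 0.00. Leaving out XYF replicate 4, 9 of the 23 had such an r, beside 1.84% of other genes, and the median was 0.38. Highest were Gjb6, an astrocyte gap junction protein (r = 0.82), Xdh (0.77), Arl4d (0.67), Map3k6 (0.61) and Ddit4, an inhibitor of mTOR signalling (0.58). Per1, a clock gene with its own response element, was at 0.14, Mt1 at 0.04 and Irs2 at -0.27. These names were picked by their r after it was seen. Correlations over many genes share the same 23 libraries and are given as descriptions.

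Among all genes with a mean of at least 1 CPM, the highest r with the mean of the members were those of Slc2a1, the glucose transporter of the blood-brain barrier (0.86), Gjb6 (0.82), Stard4, a cholesterol carrier (0.79), Fmo2 (0.79) and Fam76a (0.77). The lowest were those of Ttc4 (-0.78), Pabpc4 (-0.78), the clock activator Arntl (-0.74), Sema6a (-0.73) and Rnf112 (-0.72). Fkbp5 had other neighbours. Its highest r were with Rhou (0.82), Endod1 (0.77), Dkk3 (0.77), Prdx6 (0.76) and Fbxw11 (0.75), and its lowest with Adam8 (-0.82), Tra2a (-0.80), Ptchd1 (-0.78), Zmym1 (-0.78) and Aoc2 (-0.77).

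**Figure D5:**
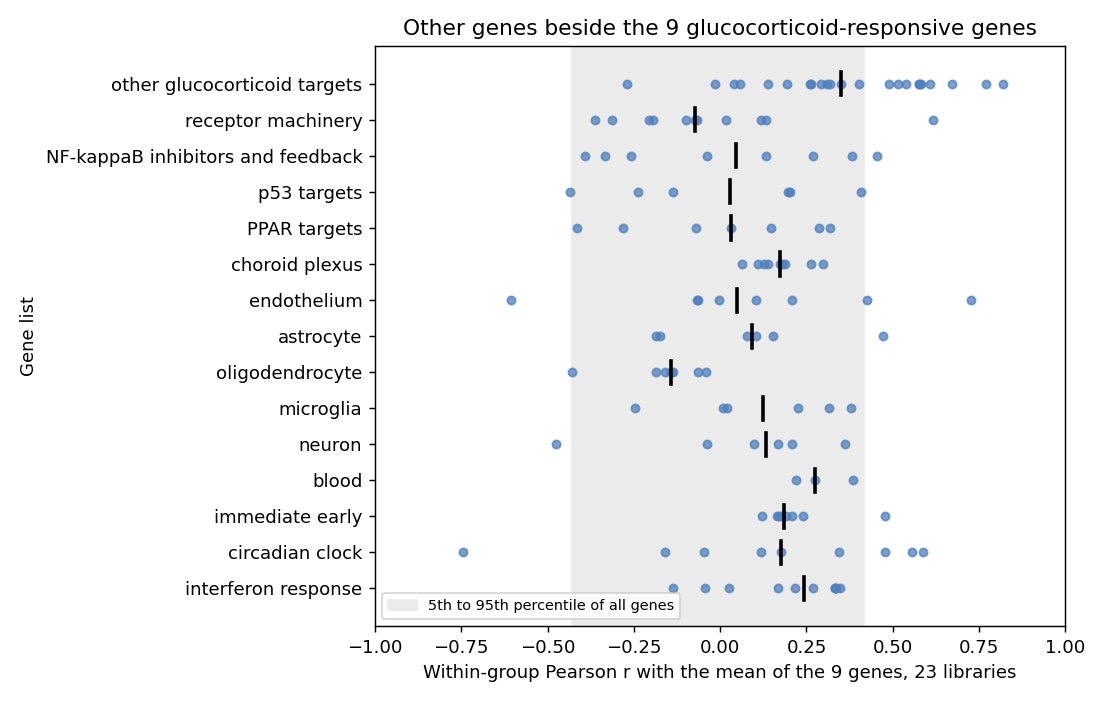
Within-group Pearson r (horizontal axis, 23 libraries) of each gene of a list with the mean of the 9 members, 1 point per gene and a bar at the list's median; the grey band runs from the 5th to the 95th percentile of all genes (-0.43 to 0.42). The other glucocorticoid targets have the highest median, 0.35, and 9 of 23 above 0.5.

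Lists of genes under other regulators of the same members were read for comparison. Nfkbia answers to NF-kappaB, and of 8 genes of that pathway 0 passed. In the gonad effect 6 of the 8 lay below 0 as Nfkbia did and 2 above, where 49.0% of all genes lay above 0. Nfkbib (-0.23 ± 0.07, edgeR adjusted p = 0.2) and Tnfaip3 (-0.33 ± 0.14, edgeR adjusted p = 0.299) had the smallest p. The 2 above 0 were Nfkbiz (0.07 ± 0.11) and Nfkb1 (0.02 ± 0.05). Cdkn1a is a p53 target, and of 6 others measured 0 passed, Sesn2 having the smallest p, at -0.15 ± 0.06 in the gonad effect (edgeR adjusted p = 0.256). Pdk4 is a PPAR target, and of 7 others 0 passed. Their gonad values were above 0 for 7 of 7, between 0.01 and 0.18. None of these lists had a gene with an r above 0.5 with the mean of the members. That mean represents some members poorly: r with the mean of the other members was 0.13 for Cdkn1a, 0.23 for Pdk4 and 0.65 for Nfkbia. The r of these lists with Cdkn1a, Pdk4 or Nfkbia alone was not computed, so whether they follow those members was not tested.

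Levels of other cell types and states were set beside the members. The summed level of 9 choroid plexus genes ranged from 58.2 to 3386 CPM between libraries, that of 8 endothelial genes from 206 to 273 CPM and that of 3 blood genes from 55.3 to 256 CPM. The within-group r of the 5 co-varying members with the choroid plexus list was between 0.01 and 0.38, with the endothelial list between -0.02 and 0.39, and with the total count between -0.30 and -0.15. With the clock list it was between 0.35 and 0.52, and with the immediate early genes between 0.12 and 0.35. Over 126 such relations, 0 passed with r after adjustment and 1 with rho, Fkbp5 with microglial genes (rho = 0.75, permutation adjusted p = 0.0378; r = 0.70, permutation adjusted p = 0.106, and r = 0.70 without the 2 farthest libraries). These scores are means over a list, and single genes of the same list could run opposite ways. With the mean of the members, r ran from -0.74 to 0.59 over the clock genes and from -0.61 to 0.73 over the endothelial genes. A list without a call can thus hold single genes that follow the members. With the choroid plexus score removed by regression, 14 of the 36 pairs of members passed. Of 10 interferon response genes, 8 passed for the sex chromosome effect (0.283% of all genes) and 6 for the gonad effect (0.16% of all genes). Their summed level lay between 98.1 and 170.1 CPM in XYF and between 57.2 and 108 CPM elsewhere. The r of their mean with the 5 co-varying members was between 0.04 and 0.39. The summed blood genes ran from 108 to 256 CPM in XYF and from 55.3 to 142 CPM elsewhere. The r of the blood list with the 5 co-varying members was between 0.14 and 0.39. The part of interferon signalling in the members' values was not tested.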

How the data were processed

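RNA of 23 hippocampi, 1 per animal, was sequenced as stranded libraries after rRNA depletion, per the labels' protocols. The submitters' processing notes name mm10 and DESeq. Neither aligner nor counting program is stated (not given in the sources used here), nor whether counting used strand. The deposited table holds estimated counts, raw per the file headers and not whole, and normalized values on a log2 scale by the authors. The authors listed only genes that reached a raw value of 20 in each library of at least 1 group, per the file headers. Groups came from the titles, and replicate numbers follow accession order, which within groups is also the order of the animal numbers, and only name libraries. No column of values was left unmatched.

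Counts were rounded, scaled by the trimmed mean of M-values and tested with edgeR (4.0.16, R 4.3.3) on 4 group means with 1 shared spread; filterByExpr removed 0 of 13766 genes. Standard errors are the absolute log2 fold change over the root of F and are approximate. Log2 CPM used a prior count of 2. Alternatives used DESeq2 (1.42.0), limma (3.58.1), other scalings and filters, a choroid plexus or animal number covariate and leaving out each library. Exon lengths came from GENCODE M21, whose gene models overlap all 9 members. Steps were tested on simulated data.

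Named are all members, receptor genes, up to 3 genes of smallest p per list and contrast, and the 5 genes most and least correlated with Fkbp5 and the mean of members. Members and lists were chosen with earlier results of these data known. The values of 1 gene of these lists are not reported here.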

Additional observations from a re-analysis of the deposited data

Results flagged for a closer look

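Plin4 in XXM replicate 5, at 12.3 CPM, stood apart from the other XXM libraries, the next of which was at 6.35 CPM. The gap was 0.715 of the range of the group, above the critical value of 0.625 for 6 samples. Of 36 groups examined (9 genes in 4 groups) this was the lone case, and chance alone marks about 1 in 20. Hif3a was also highest in this library among the XXM animals, at 8.67 CPM.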

How the results depend on the processing

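Calls of members for the sex chromosome effect and the interaction stayed at 0 under the 10 other settings and on leaving out each of the 23 libraries (lowest 0, highest 0). For the gonad effect DESeq2 called 1, and the other settings and the left-out libraries gave 0 to 0. Over all genes the sex chromosome count of 39 reached 68 with sample quality weights, and the gonad count of 22 ranged from 11 (a 5 CPM filter) to 98 (DESeq2), with 85 without XXF replicate 5. The number of co-varying pairs, 12, was 19 with no centring, 7 with ovaries alone, 1 with testes alone, 0 in XX alone and 2 without XYF replicates 2, 3 and 4. Leaving out 1 library gave 9 (XYF replicate 5) to 18 (XYF replicate 6) pairs. Relations to marker lists passed in 0 with r and 1 with rho. In XX alone r of Tsc22d3 and Nfkbia was -0.046. The log2 fold change of Fkbp5, interaction, turned to 0.0050 (median-of-ratios factors), 0.0050 (DESeq2), 0.0074 (limma voom), 0.018 (deposited log2 values) and 0.000926 (a 5 CPM filter), and that of Hif3a to 0.093 (limma voom) and 0.11 (choroid plexus covariate). On leaving out libraries, the sex chromosome value ranged from -0.00077 to 0.049 for Fkbp5 and from -0.011 to 0.063 for Nfkbia. The gonad value of Pdk4 ranged from -0.014 to 0.041, and the interaction from -0.055 to 0.042 for Fkbp5 and -0.29 to 0.17 for Hif3a. The causes were not tested. No paired analysis was possible because the labels give no replicate numbers shared between groups. The lowest count of a member in any library was 39.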
